A study of Ictalurus punctatus and Ictalurus punctatus x Ictalurus furcatus with 18 samples.

Results

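The comparison concerns the liver of hybrid catfish of the Delta Select strain at a high and at a low cycling water temperature. It rests on 6 of the 18 libraries of the study, chosen by their labels, with 3 from each regime. The water of the low regime cycled daily between 27 and 31 °C, and that of the high regime between 32 and 36 °C, for 6 weeks. Libraries H2, H6 and H8 are the hybrids of the high regime and L1, L4 and L7 those of the low regime. Each library pooled liver RNA of 3 fish from 1 tank, so a replicate is a tank, and the spread between single fish was not measured. The remaining libraries come from channel catfish of the Red River strain (H1, H4 and H7 at the high, L2, L6 and L9 at the low temperature) and of the Delta Select strain (H3, H5 and H9, and L3, L5 and L8). They served here to estimate the spread and for comparison. The organism of the hybrid libraries is entered as a cross of Ictalurus punctatus, the channel catfish, with Ictalurus furcatus, the blue catfish. The fish were fingerlings.

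Catfish are ectotherms, so the temperature of the liver follows that of the water. In vertebrate cells heat activates heat shock factors, which raise the transcription of chaperone genes, and long warm periods also change the liver's output of metabolic enzymes and secreted proteins. A first-generation hybrid carries a genome copy from each parent species, so reads can come from the transcripts of both.

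Counts were deposited for 144746 assembled transcripts with identifiers such as k82:1035821. These carry no gene names, and 0 of them matched the 32344 genes of the channel catfish reference table. No heat-shock or liver marker gene could therefore be looked up, the tissue could not be checked against its markers, and no sequence is shown. A gene can be represented by several of these transcripts, so counts below are of transcripts and not of genes. The hybrid libraries held 36476619 to 49464202 reads on transcripts, against 36242058 to 76146359 over the 18 libraries. Replicate hybrid libraries differed beyond sampling noise, with a chi-square of 14.1 to 20.04 per degree of freedom over the 6 pairs within regimes. In bulk liver RNA, a change in the cells present and a change of RNA per cell cannot be told apart.

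High temperature separated the hybrid libraries along their leading axis of variation. The first principal component of log2(CPM + 0.5), where CPM is the read count scaled to a library of fixed size, carried 41.5% of the variance among the 6 libraries. Its scores were 38.6 in H2, 65.3 in H6 and 60.3 in H8. They were -48.6 in L1, -62.1 in L4 and -53.5 in L7. The regimes did not overlap on it, and H2 lay closest to the low-temperature libraries. The next components, with 18.2% and 15.6%, mixed the regimes. The second set H6 (45.2) and L4 (29.1) apart from H8 (-49.5) and L1 (-49.3), and the third was highest in H2 (64.4).

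The response held more and larger rises than falls. Of 96799 transcripts tested by edgeR's quasi-likelihood test, 1713 (1.77%) rose and 1142 (1.18%) fell in the heat at an adjusted p under 0.05, together 2855 (2.95%). The median log2 fold change was 1.32 among rises and -0.91 among falls, against 0.02 over all tested. More than a 2-fold change was seen in 1220 rises, or 71.2% of them, and in 455 falls, or 39.8%. Beyond 4-fold there were 410 rises and 84 falls, and beyond 16-fold 97 rises and 0 falls. DESeq2 had 2200 rises and 2018 falls, and edgeR without L3 and L5, a pair of Delta Select libraries described further on, had 2188 and 1727. Leaving out 1 hybrid library lowered the total to between 1483 (without L4) and 2071 (without L1), and 749 rises and 293 falls were called in each of these 6 fits.

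Rises and falls started from different levels. At the low temperature the median level was 1.79 CPM for the rises (quartiles 0.453 and 5.71) and 9.34 CPM for the falls (3.66 and 29.5), against 1.04 CPM over all tested transcripts (0.37 and 3.55). A low-temperature mean under 1 CPM was found for 651 rises (38.0%) and 66 falls (5.78%), and for 49.0% of all tested. From a mean under 0.5 CPM, 33 transcripts rose to more than 2 CPM in each of H2, H6 and H8. In the opposite direction, 0 transcripts fell from more than 2 CPM in each of L1, L4 and L7 to a mean under 0.5 CPM. Among abundant transcripts, 116 falls started from 100 CPM or more, and 80 rises ended there. The starting levels come from libraries that also made the calls, and a faint transcript has little room to fall. These counts are therefore a description. By mean level in Red River fish, which is not in the hybrid contrast, 0.896% rose and 0.336% fell at 0.3 to 1 CPM. At 3 to 10 CPM 2.98% rose and 2.29% fell, and at 30 to 100 CPM the shares were nearly equal, at 4.88% and 4.85%. Falls outnumbered rises only in the class over 100 CPM, where 3.31% rose and 4.70% fell.

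**Figure D1:**
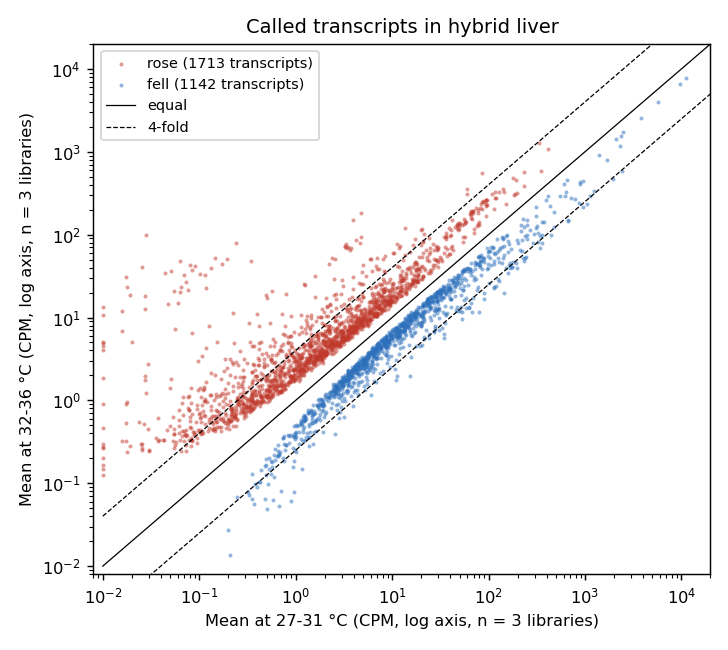
Mean level at the low temperature (horizontal) and at the high temperature (vertical) of the 2855 called transcripts in hybrid liver, in CPM on log axes, with 3 libraries per mean. Red points are the 1713 rises and blue points the 1142 falls; 16 transcripts with a low-temperature mean under 0.01 CPM are drawn at 0.01. The strongest rises lie at the left, at low starting levels, and the falls lie close to the diagonal and reach the highest levels.

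The called falls lost more of the summed CPM than the called rises gained. The CPM of the rises, which this same comparison chose, summed to 1.44% of the fixed library size in L1, 1.35% in L4 and 1.46% in L7. In the heat they summed to 3.49% in H2, 3.62% in H6 and 3.93% in H8. The falls summed to 8.42% in L1, 10.6% in L4 and 9.58% in L7, and to 4.88% in H2, 5.43% in H6 and 4.84% in H8. These sums of TMM-scaled CPM are not exact shares of a library's reads. TMM factors were 0.917 to 0.947 in the low-temperature hybrids, which puts their sums above the shares of reads on tested transcripts. In the heated hybrids the factors were 0.970 to 1.03. The sums describe the called transcripts and were not tested.

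The libraries of a regime were not interchangeable. Of the 1713 rises, H8 had the lowest of the 3 high-temperature values for 779 (45.5%), against 34.9% of all tested transcripts. H2 was lowest for 545 and H6 for 389. H8 was also the lowest of the 3 for 488 of the 1142 falls (42.7%). At the low temperature L1 was the highest of the 3 for 704 rises (41.1%, against 35.0% of all tested). Of the rises, 1692 had each of H2, H6 and H8 above each of L1, L4 and L7, and 1137 falls had them below. Over all tested transcripts this order held for 11.3% upward and 10.7% downward.

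The transcripts described next had the largest change among 106 rises and 57 falls chosen by a rule. These rises and falls had a mean of 30 CPM or more over the 6 hybrid libraries and did not overlap between regimes. They were also called whichever hybrid library was left out. The level of k82:1035821 was 6.12 CPM in L1, 4.10 in L4 and 4.19 in L7, and 244 in H2, 207 in H6 and 103 in H8. The regimes stayed far apart, and H8 was the lowest of the high-temperature libraries. The mean went from 4.80 ± 1.14 to 185 ± 73.5 CPM (SD, n = 3 and 3), a 38.5-fold rise with a log2 fold change of 5.27 ± 0.48 (SE; edgeR, adjusted p = 3.7e-05). In channel catfish it lay between 238 and 370 CPM in the Red River libraries of the high temperature and between 3.78 and 3.998 CPM in those of the low. The log2 fold change in Red River fish was 6.22 ± 0.51, and the difference of the hybrid from the Red River response, -0.95 ± 0.58, was not called (edgeR, adjusted p = 0.918).

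The level of k86:809477 was 5.08 CPM in L1, 3.46 in L4 and 3.35 in L7, and 195 in H2, 170 in H6 and 84.4 in H8. Its mean went from 3.96 ± 0.969 to 150 ± 58.0 CPM (SD, n = 3 and 3), a 37.8-fold rise with a log2 fold change of 5.24 ± 0.54 (SE; edgeR, adjusted p = 9.88e-05). Both rises had the same order of heated libraries, with H2 highest and H8 lowest, and both had L1 highest at the low temperature. L4 and L7 lay close together and changed places between the transcripts. The ratio of k82:1035821 to k86:809477 stayed between 1.18 and 1.25 over the 6 hybrid libraries and between 1.08 and 1.38 over all 18. Whether both belong to 1 gene was not determined.

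Among the falls, k70:1600491 had 80.4 CPM in L1, 230 in L4 and 126 in L7, and 19.7 in H2, 23.8 in H6 and 15.5 in H8. The low-temperature libraries spread widely, with L4 highest and L1 lowest, and each of them lay above each high-temperature library. Its log2 fold change was -2.89 ± 0.47 (SE; edgeR, adjusted p = 0.00398). The transcript k78:1236553 had 46.8, 122 and 70.4 CPM in L1, L4 and L7, and 11.7, 14.1 and 9.51 CPM in H2, H6 and H8, with a log2 fold change of -2.77 ± 0.46 (adjusted p = 0.00441, edgeR). Again L4 was the highest of its regime and H8 the lowest. The ratio of k70:1600491 to k78:1236553 was 1.63 to 1.88 in hybrid libraries and reached 2.68 over all 18.

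Both were more abundant in low-temperature hybrids than in low-temperature Red River fish, which was not tested. In Red River libraries of the low temperature k70:1600491 lay between 21.3 and 26.9 CPM and k78:1236553 between 9.28 and 10.04 CPM, near their levels in heated hybrids. In heated Red River fish they were at 6.78 to 9.65 and 3.27 to 3.82 CPM. The Red River changes, -1.58 ± 0.46 and -1.47 ± 0.45 on the log2 scale, did not pass the test (edgeR, adjusted p = 0.0582 and 0.0781). The differences of the hybrid from the Red River change, -1.30 ± 0.63 for each transcript, did not pass it either (adjusted p = 0.868 for both, edgeR).

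**Figure D2:**
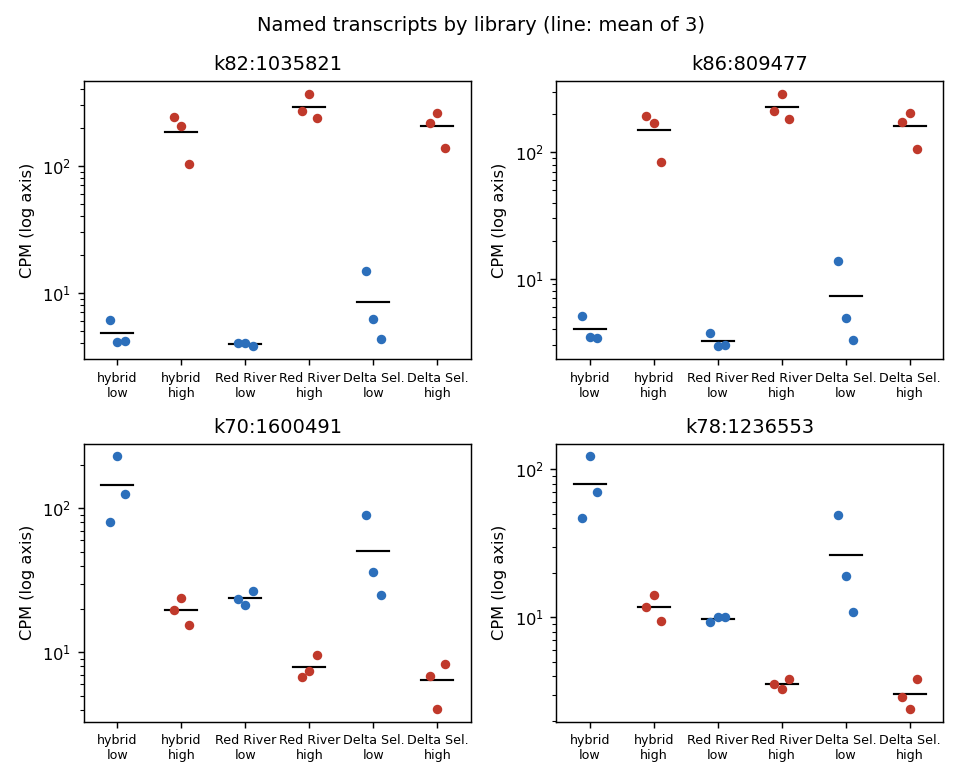
Level of the 4 transcripts named by the rule in each of the 18 libraries, in CPM on log axes, by type and temperature (blue low, red high). Each point is a library and each line the mean of 3. In hybrids the rises go from between 3.35 and 6.12 CPM to between 84.4 and 244 CPM, and the falls from between 46.8 and 230 CPM to between 9.51 and 23.8 CPM.

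The contrast of the Red River groups uses no hybrid library, although the low-count filter, the scaling and the spread were estimated over all 18 libraries together. In Red River fish 3628 transcripts (3.75% of those tested) rose and 2262 (2.34%) fell in the heat by the same edgeR test. The mean log2 level of the Red River rises, relative to the mean of the low-temperature hybrid libraries, was 0.72 in H2, 0.67 in H6 and 0.65 in H8. It was 0.06 in L1, -0.03 in L4 and -0.02 in L7. The Red River falls stood at -0.44 in H2, -0.42 in H6 and -0.40 in H8, and between -0.03 and 0.03 in the low-temperature hybrids. All tested transcripts stood between 0.02 and 0.03 in the heated hybrids. On both lists H2 lay farthest from the low-temperature hybrids and H8 nearest, and the regimes did not overlap.

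The median log2 fold change of the Red River rises was 0.74 in hybrids and 1.25 in Red River fish, and that of the falls was -0.51 and -0.97. The Red River values are those that chose the lists, so this gap was not tested. A positive log2 fold change in hybrids was found for 3481 of the 3628 rises (95.9%), and for 183 of the 2262 falls (8.09%), against 51.8% of all tested transcripts.

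**Figure D3:**
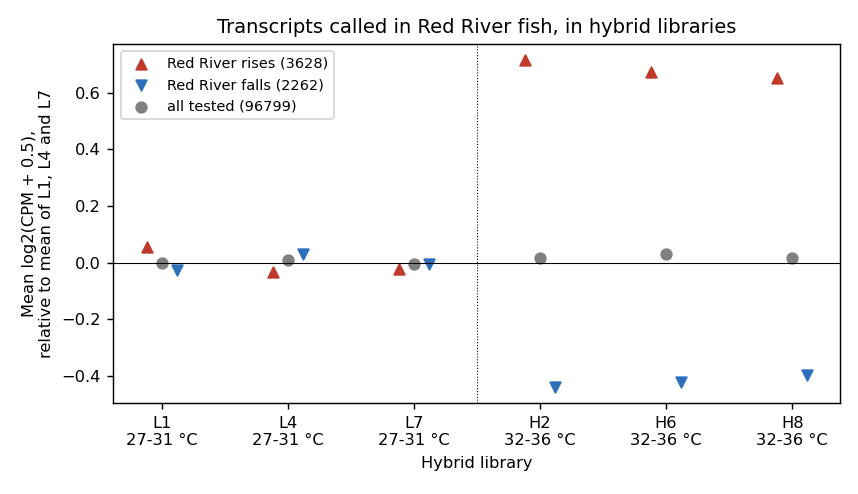
Mean log2(CPM + 0.5) in each hybrid library of the 3628 transcripts that rose and the 2262 that fell in Red River fish, and of all 96799 tested, relative to the mean of L1, L4 and L7. Each symbol is a list in a library; in the heat the Red River rises lie between 0.65 and 0.72 and the falls between -0.44 and -0.40.

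Many of the calls were shared with Red River fish. Of the 1713 hybrid rises 1289 (75.2%) were also called as rises there, against 3.75% of all tested transcripts. These 1289 are 35.5% of the Red River rises. Of the 1142 hybrid falls 472 (41.3%) were also called as falls, against 2.34% of all tested, and they are 20.9% of the Red River falls. The remaining 424 rises had a median log2 fold change of 1.32 in hybrids and 0.48 in Red River fish, where 367 were positive. The remaining 670 falls had medians of -0.92 and -0.41, and 638 were negative in Red River fish. Over all tested transcripts the Red River median was 0.003. A direct test of the difference between the hybrid and the Red River response called 0 transcripts (0%) in edgeR, with 5619 at an unadjusted p under 0.05. DESeq2 called 61 and limma-voom 0 in the same comparison.

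Of 1765 tested transcripts under 0.1 CPM in each Red River library, 20 rose (1.13%) and 1 fell in the heated hybrids, against 1.77% and 1.18% of all tested. These transcripts passed the filter on low counts through hybrid or Delta Select libraries, so the shares are a description.

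More transcripts had at least 1 read in the heated hybrids. At an equal depth of 36242058 reads, the size of the smallest of the 18 libraries, the expected number was 122818 in H2, 123962 in H6 and 123099 in H8. It was 119637 in L1, 120638 in L4 and 120628 in L7. Each heated library lay above each low-temperature library, and the gap between the regimes was wider than the range within either. The means were 123293 ± 596 and 120301 ± 575 (SD, n = 3 and 3), a difference of 2992 transcripts or 2.49%. The exact two-sided permutation test gave p = 0.1, the smallest that 3 against 3 libraries allow. H6 had the highest number although its depth before thinning, 39947479 reads, was the lowest of the heated hybrids.

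In channel catfish the direction of the difference in mean number turned when L6, or L3 and L5, were left out. In Red River fish the means were 117312 ± 201 at the high and 117746 ± 1418 at the low temperature, a difference of -434. The low-temperature mean included L6, at 119384, against 116941 in L2 and 116915 in L9. Without L6 the difference turned to 384 (0.329%), and each heated library, from 117104 to 117506, lay above L2 and L9. The change in hybrids exceeded that in Red River fish by 3426 transcripts (permutation test exchanging types within each temperature, type means removed, two-sided p = 0.005, the smallest it can give). Without L6 the hybrid excess was 2607 (permutation p = 0.005), the lowest value when any of the 12 libraries was left out.

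In Delta Select channel catfish the means were 118574 ± 974 and 119470 ± 1671, and the hybrid change exceeded theirs by 3888 (p = 0.015 by the same permutation test). That value rests on L3 and L5, which did not match the other channel catfish libraries. Of 19 transcripts at 5 CPM or more in each hybrid and under 0.1 CPM in each Red River library, 18 reached 1 CPM in L3 and 18 in L5. The number was 0 in L8 and H3 and 3 in H5 and H9. Without L3 and L5, which leaves L8 alone at the low temperature, the Delta Select difference turned from -896 to 987, and the hybrid excess was 2005 (permutation p = 0.075).

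**Figure D4:**
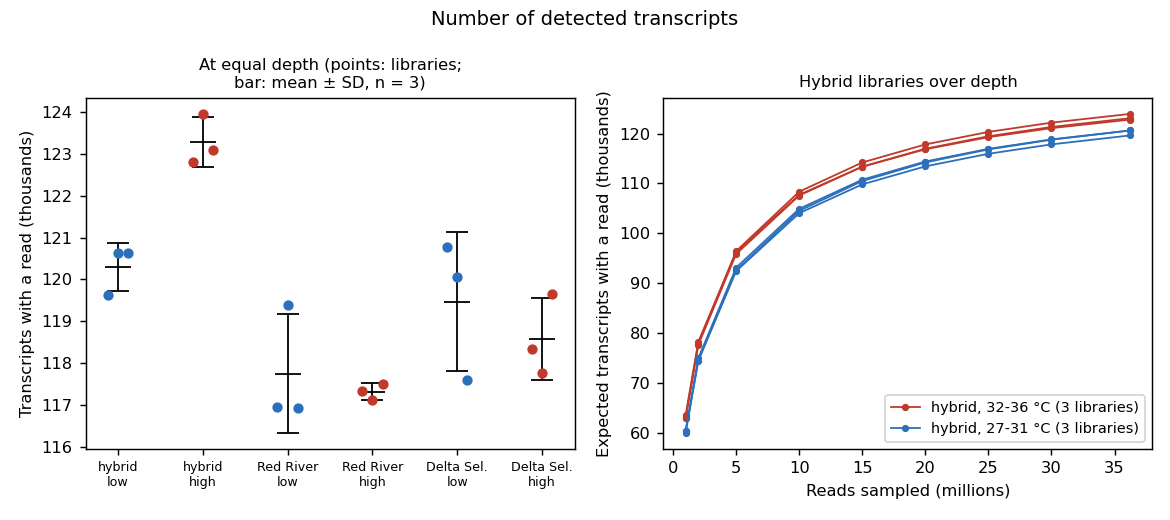
Left, expected number of transcripts with a read at 36242058 reads (axis not starting at 0) by type and temperature, with points for libraries and bars for the mean ± SD (n = 3). Right, the same number in the 6 hybrid libraries over sampling depths up to 36242058 reads. The heated hybrids, at 122818 to 123962, lie above the low-temperature hybrids, at 119637 to 120638, and the curves stay apart at each depth drawn.

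The difference in hybrids was also present when more reads were needed. It was 3340 transcripts (3.01%) when at least 2 reads were needed, 3650 (4.66%) at 10 reads and 2458 (6.03%) at 50 reads. The regimes did not overlap at any of the 6 thresholds, from 1 to 50 reads. Red River fish had differences from -0.369% to -1.21% over these thresholds, which turned to between 0.329% and 1.68% without L6. In Delta Select fish the difference went from -0.75% at 1 read to 4.27% at 50 reads, where its regimes did not overlap either. At 50 reads the excess of the hybrid change over Delta Select fish was 695 transcripts (permutation p = 0.54), and over Red River fish 2962 (permutation p = 0.015), or 1772 without L6 (permutation p = 0.025). Without L3 and L5 the hybrid change was below that of Delta Select fish from 5 reads upward, by a difference of -208 at 5 reads and -1253 at 50 reads (permutation p = 0.85 and 0.0875). A larger hybrid than Delta Select change was therefore not found at these thresholds.

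Rare transcripts made up most of the difference at 1 read. Of the 2992 transcripts, 2734 (91.4%) fell to those that the edgeR filter left untested for low counts, and 33.9 to the 1713 rises. The untested were 47947 of the 144746 transcripts, and their 2734 is the net of gains of 5436 and losses of -2702. Tested transcripts had little room to add to the difference. Of these 96799, 96243 were already detected on average at the low temperature. By reads in Red River fish, which the hybrid values do not enter, 1430 (47.8%) came from transcripts with 1 to 10 reads over the 6 Red River libraries. A further 882 (29.5%) came from those with 11 to 100 reads, and 644 (21.5%) from the 14192 with no Red River read. In that last class the heated hybrids had 2004 to 2723 detected transcripts and the low-temperature hybrids 1460 to 1899, 37.6% more on average. Transcripts with more than 100 Red River reads were detected almost throughout in both regimes and added 35.5.

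The k-mer size in the identifier, between 50 and 94, is the other property the table gives. Transcripts of size 50 had the largest difference, with means of 19418 at the low and 20290 at the high temperature (4.49%), followed by size 62 with 15364 and 15925 (3.65%). From size 74 upward the difference lay between 1.14% and 1.58%. In each size class but 94 the heated libraries lay above the low-temperature ones. The classes also differed in how many transcripts remained undetected. At the low temperature 19418 of 28164 were detected on average at size 50 and 15364 of 21426 at size 62. At size 86 the mean was 10016 of 10586. Whether k-mer size matters apart from this was not tested.

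**Figure D5:**
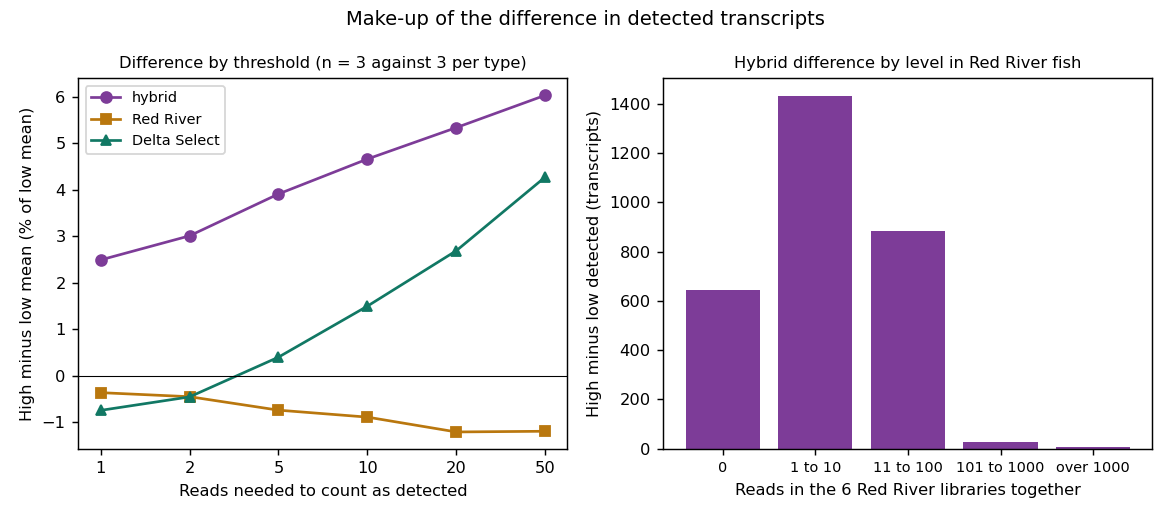
Left, high minus low mean number of detected transcripts, in percent of the low-temperature mean, by the reads needed to count as detected, for each type (3 against 3 libraries). Right, the hybrid difference at 1 read split by the reads of a transcript over the 6 Red River libraries, in transcripts. The hybrid difference goes from 2.49% to 6.03% over the thresholds, and the Red River values turn positive without L6. Classes up to 100 Red River reads hold nearly all of the hybrid difference at 1 read.

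Detection confined to 1 regime occurred in both directions. After random thinning to equal depth, 448 of the 144746 transcripts had a read in each of H2, H6 and H8 and none in L1, L4 and L7. The reverse held for 127. They are named gained and lost here for this pattern alone. A further 106758 had a read in all 6 hybrid libraries and 10896 in none. Other random draws gave 450 to 492 transcripts gained in the heat and 133 to 148 lost, all above the counts of the draw used here. The gained transcripts were faint, with a median of 1.67 reads per heated library, and 419 of 448 (93.5%) had a mean of 5 reads or fewer. Their group held 7 transcripts with a mean of 1 CPM or more, and the lost group, with at most 4 reads on average, held 0. Of the gained transcripts edgeR tested 25 and called 9, and of the lost it tested 1 and called 0. How many such patterns the sampling of so few reads would give was not tested.

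The gained transcripts were detected about as often in either regime of the Red River fish. At the same depth 221 of the 448 had a read in H1, 198 in H4 and 218 in H7 of the heated Red River fish, and 176 in L2, 202 in L6 and 213 in L9 at the low temperature. These ranges overlap. In Delta Select fish the numbers were 232 to 256 in the heat and 201 to 232 at the low temperature. No Red River read at full depth was found for 74 of the gained transcripts (16.5%) and 10 of the lost (7.87%), against 14192 of all 144746 transcripts. These shares were not compared with those of other transcripts as faint.

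The spread of reads over transcripts was more even in each heated hybrid library than in each low-temperature one, although the test could not pass a threshold of 0.05. The effective number of transcripts, the exponential of the Shannon entropy of the read shares, was 6918 in H2, 6247 in H6 and 6957 in H8. It was 6139 in L1, 5926 in L4 and 5489 in L7. The regimes did not overlap, with means of 6707 ± 400 and 5851 ± 331 (SD, n = 3 and 3; exact permutation p = 0.1, the smallest possible), but H6 lay close to L1. The 1000 most abundant transcripts of each library took 51.7%, 53.2% and 51.5% of the reads in H2, H6 and H8, and 53.6%, 54.5% and 55.5% in L1, L4 and L7. The shares of the 100 most abundant overlapped, at 23.9% to 26.3% and 25.6% to 28.1% (exact permutation p = 0.3). In Red River fish the effective number went from 6036 ± 791 to 5786 ± 165, and the hybrid change exceeded theirs by 1106 without passing the test (permutation p = 0.07). Without L6 the Red River difference turned from -250 to 205, and the excess was 651 (permutation p = 0.095). The regimes of Delta Select fish did not overlap either, so this separation was not particular to hybrids. Their effective number was 6324 in H3, 6703 in H5 and 6649 in H9 in the heat. At the low temperature it was 6287 in L3, 5897 in L5 and 5058 in L8. The hybrid change was not tested against theirs.

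The number of detected transcripts and the evenness did not order the libraries alike, since H6 had the highest number and the lowest evenness among heated hybrids. With the 1000 most abundant transcripts left out before the depth was made equal, the equal depth was 16717599 reads. The heated hybrids had 2597 more detected transcripts there, and the regimes did not overlap. The part of evenness in the number of detected transcripts was not tested.

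Rare and abundant transcripts had medians of opposite sign in the heated hybrids. With transcripts classed by their mean level in the heated Delta Select libraries, whose levels are in neither contrast, the median log2 fold change in hybrids was 0.06 for 16868 transcripts at 0.1 to 0.3 CPM. It was 0.02 at 1 to 3 CPM, -0.04 at 10 to 30 CPM and -0.09 for 1487 transcripts over 100 CPM. Of these last, 37.9% had a positive log2 fold change, against 54.6% of those at 0.1 to 0.3 CPM. In Red River fish the median was 0.07 over 100 CPM, on the scale of log2(CPM + 0.5), and turned to -0.02 without L6, the most even library of that strain. No test compared the types here.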

How the data were processed

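Liver RNA was sequenced as single reads of 50 bases from 18 tank pools in 6 groups of 3, per the labels' protocols, with RNA integrity numbers of 8.2 to 9.9. The authors deposited raw read counts per assembled transcript, which were used here. The submitters' processing notes list R 3.1.0, DESeq 1.12.1 and Bowtie2 2.1.0 without their roles. Assembler, counting tool, strand use and the treatment of reads shared between transcripts were not given in the sources used here, and such reads make the count of a single transcript uncertain. The row that names no transcript, 24.6% to 25.6% of the reads of a hybrid library, was left out. The deposited normalized table was not used here.

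The test was edgeR 4.0.16 in R 4.3.3 (quasi-likelihood, robust, TMM scaling) with a mean per group over all 18 libraries, after filterByExpr (minimum count 10, minimum total 15), which left out 47947 transcripts. P-values were Benjamini-Hochberg adjusted over 96799 transcripts. CPM were computed from the counts with TMM scaling. Expected numbers of detected transcripts came from sampling without replacement (scipy 1.17.1), and lists of gained and lost transcripts from a random thinning. Alternatives were DESeq2 1.42.0, limma-voom 3.58.1, other scalings, filters, depths and read thresholds, and leaving out libraries. The edgeR fit and the expected numbers were tested on simulated data. The named transcripts follow the rule given in the text, apart from the examples of steep rises given with the counts by fold change. Those examples were chosen after the data were seen. The comparison, lists and rules were chosen with earlier results of these data known. The comparison with Delta Select fish, the test of evenness between types, the level classes and the values without L6, or without L3 and L5, in channel catfish were added after the data were seen. Lists of heat-shock, blood and pancreas genes were set but not applied, for want of gene names. The labels give no batch.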

Additional observations from a re-analysis of the deposited data

Results flagged for a closer look

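The change with temperature in the number of detected transcripts differed between types, by tests of the difference itself. Hybrids exceeded Red River fish by 3425.9 transcripts (permutation test, p = 0.005, 6 and 6 libraries) and Delta Select fish by 3888.1 (permutation test, p = 0.015). The latter value includes L3 and L5, and without them it was 2005 (permutation p = 0.075), and it turned to -208 when 5 reads were needed (permutation p = 0.85). Heated hybrids had 123293 detected transcripts on average and low-temperature hybrids 120301. Groups held 3 libraries, so single libraries were not tested as outliers.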

How the results depend on the processing

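With 1 hybrid library left out, calls numbered 1483 to 2071, rises 945 to 1323 and falls 538 to 841. Omitting L4 gave 1483 calls (538 falls), omitting L7 1683 (636), omitting H6 1709 (544), omitting H8 1869 (547) and omitting H2 1967 (644). Falls numbered 2018 in DESeq2 and 1727 without L3 and L5, against 1142. With hybrid libraries alone 2833 transcripts were called, 2075 of them shared with the 2855, and limma-voom called 2540. Rises outnumbered falls in each of these fits, at 52.2% to 70.7% of the calls. The difference between hybrid and Red River responses had 61 calls in DESeq2, 3 without L3 and L5, 1 without H6 and 0 otherwise. The 4 transcripts named by the rule were called in each of 15 fits. The rule itself required this of the main fit and of the 6 fits without 1 hybrid library, so only the remaining fits could have differed. Gained transcripts numbered 729 at 5 reads, and 272 were lost at 10000000 reads. The hybrid difference in detected transcripts was 2657 to 3229 with 1 library left out, the effective number differed by 675 to 1086, and the share of the 100 most abundant differed by -2.46 to -1.05 points. The excess over Red River fish was 2607 to 3842 with 1 of 12 libraries left out, 2937 to 4372 under other settings and 1772 to 3005 with L6 left out at 2 to 50 reads, and stayed past the threshold in each of 27 alternatives. The excess over Delta Select fish missed it at 10000000 reads (3545), at 5 (3309), 10 (2480), 20 (1625) and 50 reads (695), and without L3 and L5 (2005). Without both it was 993 at 2 reads and reversed to -208 at 5, -799.97 at 10, -1225 at 20 and -1253 at 50 reads. With a pseudocount of 0.1 or 2 CPM in place of 0.5, the mean change in hybrids was 0.85 or 0.48 for Red River rises and -0.50 or -0.30 for the falls. The causes were not tested. No paired analysis was possible because the hybrid libraries of both regimes share no number. The edgeR p-values set a change against a spread between tanks that was estimated over all 18 libraries, L3 and L5 included, not over the hybrid tanks alone. Exact tests of 3 against 3 libraries cannot reach a p under 0.1.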
